A study of Mus musculus with 5 samples.

Results

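The 10 genes described here mark the oligodendrocyte lineage, and they were followed in newborn mice in the dLGN (dorsal lateral geniculate nucleus), where the thalamus passes visual input on to the cortex. They were chosen by name, and all probe sets that the platform annotation assigns to 1 of these symbols alone were used, which gave 28 probe sets of 45037 tested, for 10 of the 18193 genes with a named probe set. Precursors are marked by 5 of the genes (Olig1, Olig2, Sox10, Pdgfra and Cspg4, with 10 probe sets) and myelin by the other 5 (Mbp, Mag, Mog, Mobp and Cnp, with 18). Expression was measured on Affymetrix arrays at postnatal day 0 in 2 groups of mice kept on a C57BL/6 background. The knockout group, homozygous for loss of Sema6A (Sema6A-/-), had 2 arrays. The control group, heterozygous for the same loss and so carrying 1 disrupted copy itself, had 3 arrays. Each array was hybridised with RNA from 1 pool of dLGN tissue from pups of 1 genotype, which came from more than 1 litter, and the labels give neither the sex of the pups nor the part of Sema6a that was disrupted. The p-values therefore measure the spread between pools. For 1 value at a time, the smallest p that exact permutation of 5 such pools can give is 0.1.

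Oligodendrocytes are the cells that wrap axons of the central nervous system in myelin. Their precursors divide and migrate under control of platelet-derived growth factor, then stop dividing, switch on a programme of myelin genes and ensheath axons. In the mouse forebrain most of this happens after birth, so newborn tissue is known for precursors and early committed cells rather than for finished myelin. In bulk tissue, fewer cells of a type and less RNA per cell cannot be told apart.

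All levels are log2 values after RMA, which removes background signal, gives all arrays the same distribution and combines the probes of each set. Differences are knockout minus control on this log2 scale, so that 1 is a doubling. The arrays had medians between 6.39 and 6.42, and the median over all values was 6.41. Sema6a itself read 7.81 and 7.85 in the knockout pools, against 10.47, 10.65 and 10.39 in the heterozygous pools at its brightest probe set, a difference of -2.68 (limma adjusted p = 0.0236). The 12 markers of thalamic relay neurons had a mean level of 11.31 to 11.80 in the knockout arrays and 11.27 to 11.41 in the control arrays, and 0 of them stayed below the median of all values in every array. Single markers differed more, with 7 higher and 5 lower. At the brightest probe sets Gbx2 differed by 1.97, Nr2f2 by 0.79, Foxp2 by 0.48 and Rora by -0.36, each without overlap. Lhx2 differed by 0.63 with overlap. The other probe sets of Rora were all lower too, by -1.18 to -0.10. Slc6a4 read 7.98 in knockout replicate 1 and 10.60 in knockout replicate 2, against 10.60 to 10.85 in the control arrays. Of the 45037 probe sets, limma called 33 at an adjusted p under 0.05, and it called 0 once any 1 of the 5 arrays was left out.

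At their brightest probe sets, the 5 precursor genes were all higher on average in the knockout pools, by small amounts. The groups overlapped for Olig2, and the other probe set of Cspg4 was lower, at -0.29. The 5 myelin genes had differences of both signs. With each gene taken at its brightest probe set, the precursor genes differed by 0.17 to 0.83 with a median of 0.34, which was 0.19 when the probe sets of each gene were averaged. The myelin genes spanned -0.92 for Mag to 1.55 for Mbp, with a median of -0.0035. The median over the brightest probe sets of all 18193 genes was 0.0085. In limma, 0 of the 28 probe sets had an adjusted p under 0.05, where 0.0733% of all probe sets did (0.0644% as higher and 0.00888% as lower), and the adjusted p-values of the members lay between 0.238 and 0.9999. An unadjusted p under 0.05 was reached by 9 of the 28, with 7 higher (Sox10, Pdgfra and 5 probe sets of Mbp) and 2 lower (Mag and 1 probe set of Mobp), against 11.1% of all probe sets (5.16% higher and 5.99% lower). The groups did not overlap for 14 of the 28, of which 11 had both knockout arrays above every control array and 3 below; over all probe sets this held for 27.3%, with 12.9% above and 14.5% below. The count of 9 was 4 without knockout replicate 2, 5 without control replicate 2 and 6 without control replicate 1. Probe sets of 1 gene can share sequence, so they are not separate measurements of it.

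**Figure D1:**
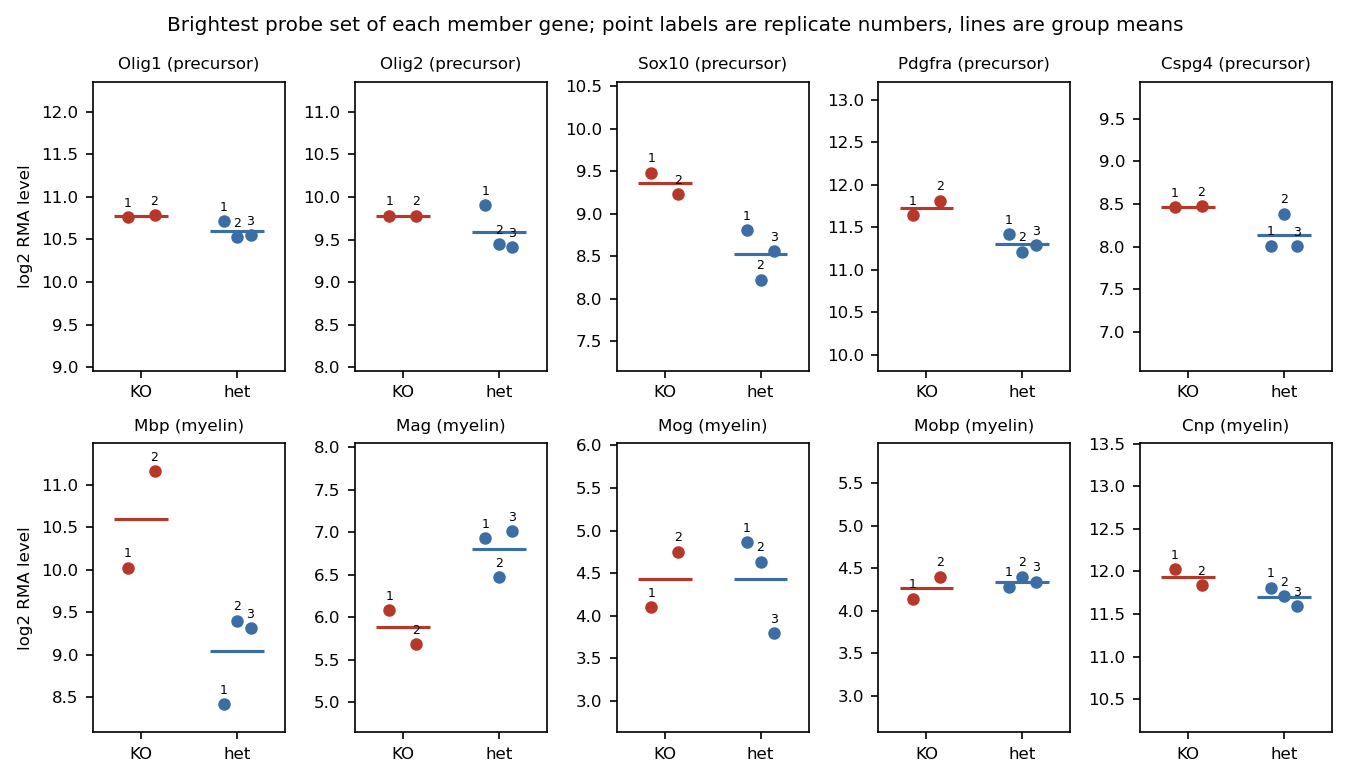
Log2 RMA level (vertical axis) of the brightest probe set of each of the 10 genes in knockout (KO, red, n = 2) and heterozygous control (het, blue, n = 3) arrays; each point is 1 array with its replicate number, lines are group means, and every panel spans the same range of log2 units. Both knockout arrays lie above every control array for Olig1, Sox10, Pdgfra, Cspg4, Mbp and Cnp and below every control array for Mag.

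Olig1 and Olig2 encode neighbouring basic helix-loop-helix transcription factors that specify the lineage (chr16:91269769-91271939 and chr16:91225550-91228677 in GRCm38.p6, 41.1 kb apart). Olig1 read 10.76 and 10.79 in the knockout pools, against 10.72, 10.53 and 10.55 in the heterozygous pools. The groups did not overlap, but the nearest arrays were only 0.043 apart, and the difference of 0.17 had a standard error of 0.11 (limma adjusted p = 0.627). Olig2 read 9.78 and 9.78 in the knockout pools, against 9.90, 9.44 and 9.41 in the heterozygous pools. Control replicate 1 was the highest array, so the groups overlapped, and the difference of 0.19 had a 95% interval of -0.26 to 0.65. It was 0.35 without control replicate 1, 0.12 without control replicate 2 and 0.11 without control replicate 3. Both knockout arrays held the same value for Olig2 to every deposited digit, which narrows the spread that enters its test.

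Sox10 encodes a SOX-family transcription factor that acts in both precursors and myelinating cells, as well as in the neural crest (chr15:79154913-79164490). Its brightest probe set, 1451689_a_at, read 9.48 and 9.23 in the knockout pools, against 8.81, 8.22 and 8.56 in the heterozygous pools. Both knockout pools were above every control pool, with 9.36 ± 0.18 (SD, n = 2) in the knockout and 8.53 ± 0.29 (SD, n = 3) in the control, a difference of 0.83 with a standard error of 0.20 (limma adjusted p = 0.259). The other probe sets did not show a difference of this size. Probe set 1424985_a_at gave 0.19 (95% interval -0.17 to 0.56), and 1425369_a_at, which was below the median of all values in all 5 arrays, gave 0.025 (95% interval -0.71 to 0.76). The mean of the 3 probe sets gave 0.35, so the size of the Sox10 difference rests on 1 probe set.

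Pdgfra encodes the receptor through which platelet-derived growth factor drives precursor division (chr5:75151322-75198206), and it is also made by fibroblasts of the meninges. Its brightest probe set, 1421917_at, read 11.64 and 11.81 in the knockout pools, against 11.42, 11.21 and 11.29 in the heterozygous pools. Every knockout array was above every control array, and the difference of 0.42, a 1.34-fold higher level, had a standard error of 0.12 (limma adjusted p = 0.334). Probe sets 1438946_at and 1421916_at gave 0.25 and 0.15, with overlapping groups, and the mean of the 3 gave 0.27. Over the 10 markers of meningeal fibroblasts, 3 were higher and 7 lower, with a median of -0.46. Their mean level was 6.00 and 5.93 in the knockout arrays, against 6.16, 6.01 and 7.26 in the control arrays, of which replicate 3 alone stood apart, and their part in the Pdgfra result was not tested.

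Cspg4 encodes NG2, a surface proteoglycan of precursors and of pericytes (chr9:56865104-56899870). Probe set 1423341_at read 8.461 and 8.476 in the knockout pools, against 8.008, 8.386 and 8.001 in the heterozygous pools. Control replicate 2 came within 0.075 of the knockout arrays, and the difference of 0.34 had a 95% interval of -0.054 to 0.73 (limma adjusted p = 0.508). The other probe set, 1450944_at, had the opposite sign at -0.29 (95% interval -0.88 to 0.31), with 5.75 and 6.47 in the knockout pools and 6.31, 6.29 and 6.59 in the heterozygous pools. The mean of both was 0.025, so these data give Cspg4 no direction. The 10 pericyte markers had mean levels of 8.34 to 8.56 in the knockout and 8.17 to 8.55 in the control.

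Among the myelin genes, Mbp had the largest difference and the largest standard error at the brightest probe sets. Mbp encodes myelin basic protein, which holds the inner faces of the myelin membrane together, and lies on the same chromosome as Sema6a (chr18:82475091-82585637, 35.1 Mb from it). Its brightest probe set, 1425264_s_at, read 10.02 and 11.16 in the knockout pools, against 8.42, 9.40 and 9.31 in the heterozygous pools. Both knockout pools were above every control pool, with 10.59 ± 0.80 (SD, n = 2) in the knockout and 9.04 ± 0.54 (SD, n = 3) in the control. The difference was 1.55, a 2.92-fold higher level, with a standard error of 0.44 and a 95% interval of 0.44 to 2.65 (limma adjusted p = 0.324). The knockout pools themselves lay 1.13 apart and the control pools spanned 0.98. Without knockout replicate 1 the difference was 2.11, and without knockout replicate 2 it was 0.98. The mean of all 8 probe sets of Mbp gave 0.92.

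The other probe sets of Mbp mostly repeated this order of arrays. In 7 of the 8 probe sets the knockout mean was higher, and in 6 both knockout arrays were above every control array. Knockout replicate 2 was above replicate 1 in all 8, and control replicate 1 was the lowest control in all 8. Probe set 1433532_a_at read 7.04 and 8.33 in the knockout pools, against 5.78, 6.35 and 6.72 in the heterozygous pools and gave 1.40. Probe sets 1436201_x_at, 1456228_x_at, 1425263_a_at and 1454651_x_at gave 1.11, 1.03, 1.01 and 0.85, also without overlap. Probe set 1419646_a_at gave 0.63 with overlap, since knockout replicate 1 read 5.08 and the controls 4.92 to 5.29. The dimmest, 1451961_a_at, gave -0.25 at levels of 3.58 and 4.04 in the knockout and 3.82 to 4.22 in the control. Mbp is made as several transcripts, and which of them each probe set reads is not given in the sources used here.

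**Figure D2:**
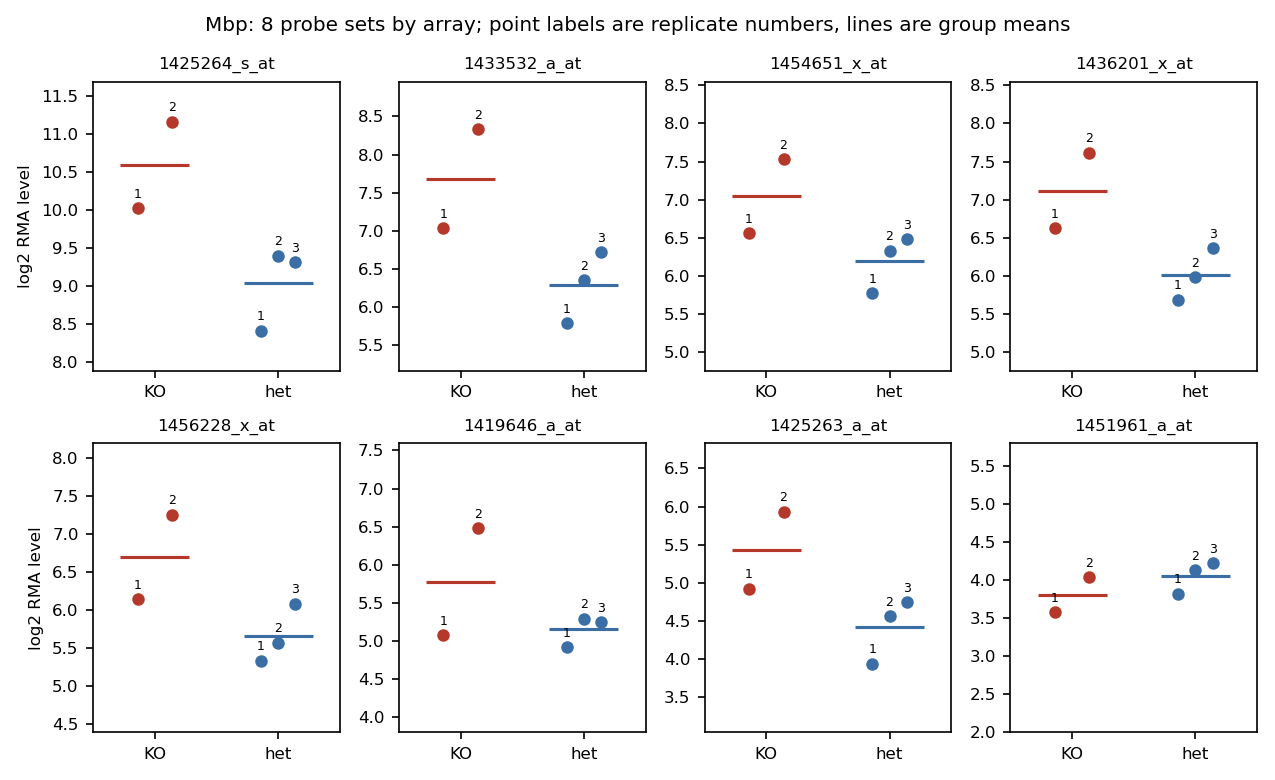
Log2 RMA level (vertical axis) of the 8 probe sets of Mbp, ordered by mean level, in knockout (KO, red, n = 2) and heterozygous control (het, blue, n = 3) arrays; points carry replicate numbers, lines are group means, and panels span the same range of log2 units. Knockout replicate 2 is the highest of the 5 arrays in 7 panels, and control replicate 1 is the lowest of the controls in all 8.

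Mag was the myelin gene with the opposite sign to Mbp and with groups that did not overlap. It encodes the myelin-associated glycoprotein, which sits where the myelin sheath faces the axon (chr7:30899175-30914922), and it has 1 probe set. Mag read 6.08 and 5.68 in the knockout pools, against 6.93, 6.47 and 7.01 in the heterozygous pools. Both knockout pools were below every control pool by at least 0.38, with 5.88 ± 0.28 (SD, n = 2) in the knockout and 6.80 ± 0.29 (SD, n = 3) in the control. The difference was -0.92, a 1.89-fold lower level, with a standard error of 0.22 (limma adjusted p = 0.254), and it lay between -1.12 and -0.72 under all 12 alternative settings. The level was close to the median of all values.

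Mobp and Mog, which encode a compact-myelin protein and a glycoprotein of the outer myelin surface, are known as late myelin genes, and each of their probe sets was below the median of all values in all 5 arrays (chr9:120149742-120181488 and chr17:37010740-37023398). Mobp at its brightest probe set, 1450088_a_at, read 4.14 and 4.40 in the knockout pools, against 4.29, 4.40 and 4.34 in the heterozygous pools, with overlap and a difference of -0.072 (95% interval -0.39 to 0.24); with single arrays left out it ran from -0.20 (without knockout replicate 2) to 0.057 (without knockout replicate 1). Of the 4 others, 1436263_at read 3.58 and 3.76 in the knockout pools, against 4.29, 4.16 and 4.15 in the heterozygous pools, a difference of -0.53 with a standard error of 0.12 and no overlap (limma adjusted p = 0.238). Probe set 1433785_at gave -0.20, also with both knockout arrays below the controls, and 1421010_at and 1441308_at gave -0.098 and 0.00026 with overlap. Mog read 4.10 and 4.75 in the knockout pools, against 4.86, 4.64 and 3.80 in the heterozygous pools, with the extremes of the 5 arrays both among the controls, and a difference of -0.0035 with a 95% interval as wide as -0.93 to 0.92. A difference in Mog was not detectable at this signal: it was 0.32 without knockout replicate 1 and -0.33 without knockout replicate 2.

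Cnp encodes an enzyme of myelin membranes that is switched on early, in precursors that begin to differentiate (chr11:100574909-100591875). Its brightest probe set, 1437341_x_at, read 12.02 and 11.84 in the knockout pools, against 11.81, 11.71 and 11.59 in the heterozygous pools. The groups did not overlap by a margin of 0.028, and the difference of 0.23 had a 95% interval of -0.089 to 0.54 (limma adjusted p = 0.574). The other probe sets gave 0.076 (1418980_a_at) and -0.20 (1449296_a_at), both with overlap, so the signs of the 3 differed. The difference at the brightest was 0.13 without knockout replicate 1, and the mean of the 3 probe sets gave 0.035. The 95% intervals of the 3 probe sets lay within -0.52 to 0.54.

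**Figure D3:**
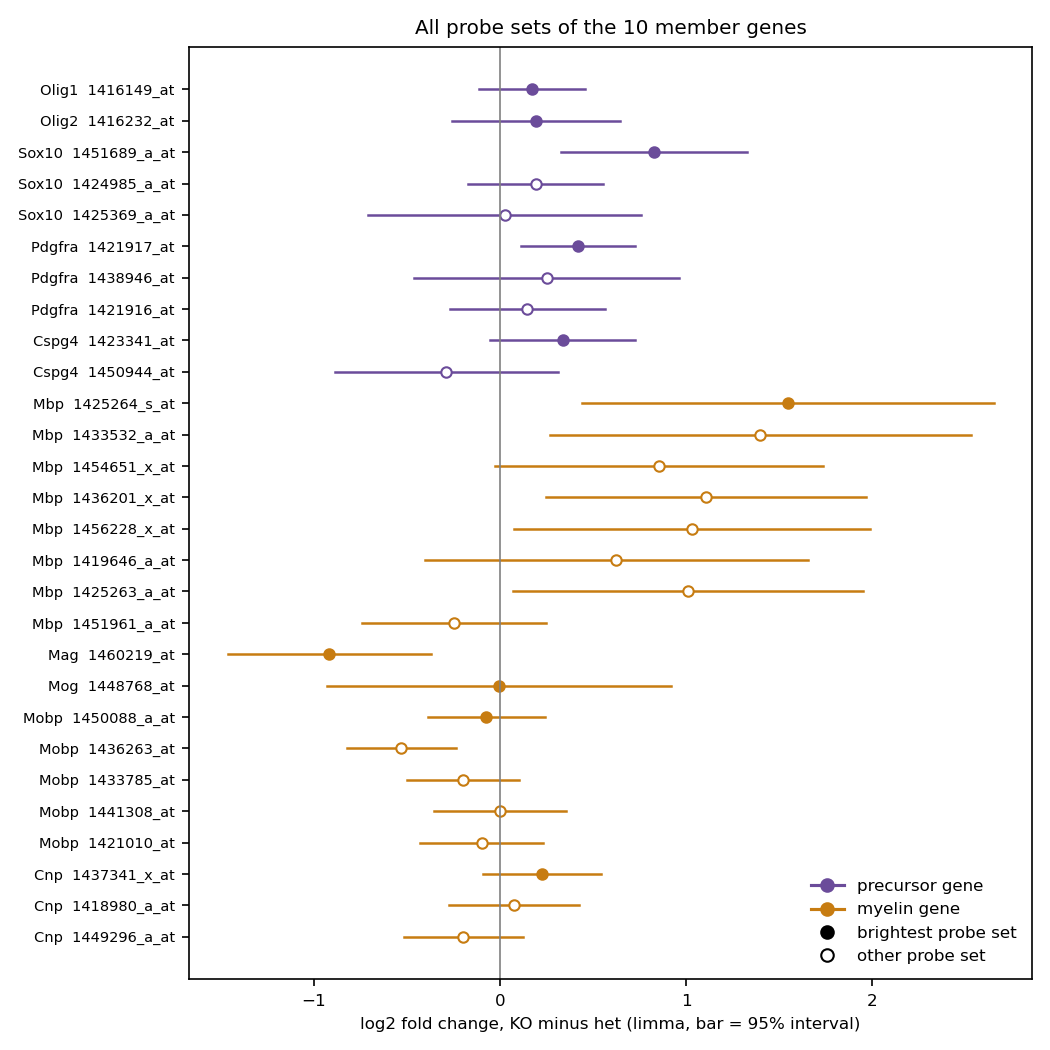
Log2 fold change, knockout minus heterozygous control (horizontal axis), of all 28 probe sets of the 10 genes, with 95% intervals from limma; filled points are the brightest probe set of each gene, open points the others, purple the precursor genes and orange the myelin genes. Intervals of 9 probe sets leave out 0: Sox10, Pdgfra and 5 of Mbp on the higher side, Mag and 1 of Mobp on the lower side.

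Promoter windows are printed for a precursor gene that was higher in both knockout pools (Pdgfra) and for 2 myelin genes with probe sets that were lower in both (Mag and Mobp). They come from RefSeq on GRCm38.p6 and run from 250 bases before to 50 bases after the annotated start, 5′ to 3′ on the strand of the gene; 7 of the 10 genes matched a window (all but Olig1, Sox10 and Mbp). Capitals mark the core to which SOX proteins such as Sox10 are known to bind, searched as ACAAAG and ACAATG on both strands (CTTTGT and CATTGT on the printed strand). The Pdgfra window is chr5:75152001-75152300 on the plus strand. It lies inside the span given above for that gene, so its annotated start is not the first base of that span. The most upstream of the Mag windows is chr7:30914873-30915172 on the minus strand, and the Mobp window is chr9:120149492-120149791 on the plus strand.
Pdgfra: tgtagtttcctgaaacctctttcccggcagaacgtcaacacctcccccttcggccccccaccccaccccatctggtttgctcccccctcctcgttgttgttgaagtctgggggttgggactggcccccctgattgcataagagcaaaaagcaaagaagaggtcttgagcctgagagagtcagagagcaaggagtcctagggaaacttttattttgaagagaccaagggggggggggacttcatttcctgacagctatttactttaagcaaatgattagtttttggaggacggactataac
Mag: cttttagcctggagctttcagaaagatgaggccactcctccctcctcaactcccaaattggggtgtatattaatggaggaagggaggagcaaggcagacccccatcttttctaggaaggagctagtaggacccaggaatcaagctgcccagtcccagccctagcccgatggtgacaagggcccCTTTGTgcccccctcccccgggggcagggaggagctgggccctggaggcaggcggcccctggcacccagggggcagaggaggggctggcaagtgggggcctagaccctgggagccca
Mobp: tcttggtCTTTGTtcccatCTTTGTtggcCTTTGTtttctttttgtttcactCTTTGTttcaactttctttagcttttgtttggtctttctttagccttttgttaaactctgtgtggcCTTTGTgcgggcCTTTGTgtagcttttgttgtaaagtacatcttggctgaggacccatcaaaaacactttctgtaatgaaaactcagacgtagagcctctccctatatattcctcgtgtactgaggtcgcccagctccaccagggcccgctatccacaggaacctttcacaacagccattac
The Mobp window held 6 copies of the core, all as CTTTGT and none overlapping another. It was the only 1 of 32851 promoter windows of this length with 6, and none had more. The Mag window held 1 copy and the Pdgfra window 0, while 28.6% of all windows held at least 1. Of the other 4 genes, the windows of Olig2 and Cnp held 1 copy and those of Cspg4 and Mog 0. The motif was chosen after the Mobp window had been seen, the window is poor in G and C (43.3%, against a median of 52.7% over all windows), and a match of letters is no evidence of binding.

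Set side by side by array, the precursor genes were above their control means in both knockout pools, while the myelin genes lay on both sides of theirs. The median deviation of the 5 precursor genes from their control means was 0.33 in knockout replicate 1 and 0.34 in replicate 2, against 0.12, -0.093 and -0.046 in the controls. For the 5 myelin genes it was -0.20 and 0.13 in the knockout pools, against 0.10, 0.058 and -0.00063 in the controls. The myelin median therefore describes neither Mbp, which was high, nor Mag, which was low, while the other 3 lay between -0.072 and 0.23. With all probe sets counted, 9 of 10 precursor probe sets and 10 of 18 myelin probe sets were higher, and of the 10 myelin probe sets other than those of Mbp, 3 were. Over all genes at the brightest probe set 51.6% were higher. No test was made of the difference between these groups of genes, which were chosen with the results known.

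**Figure D4:**
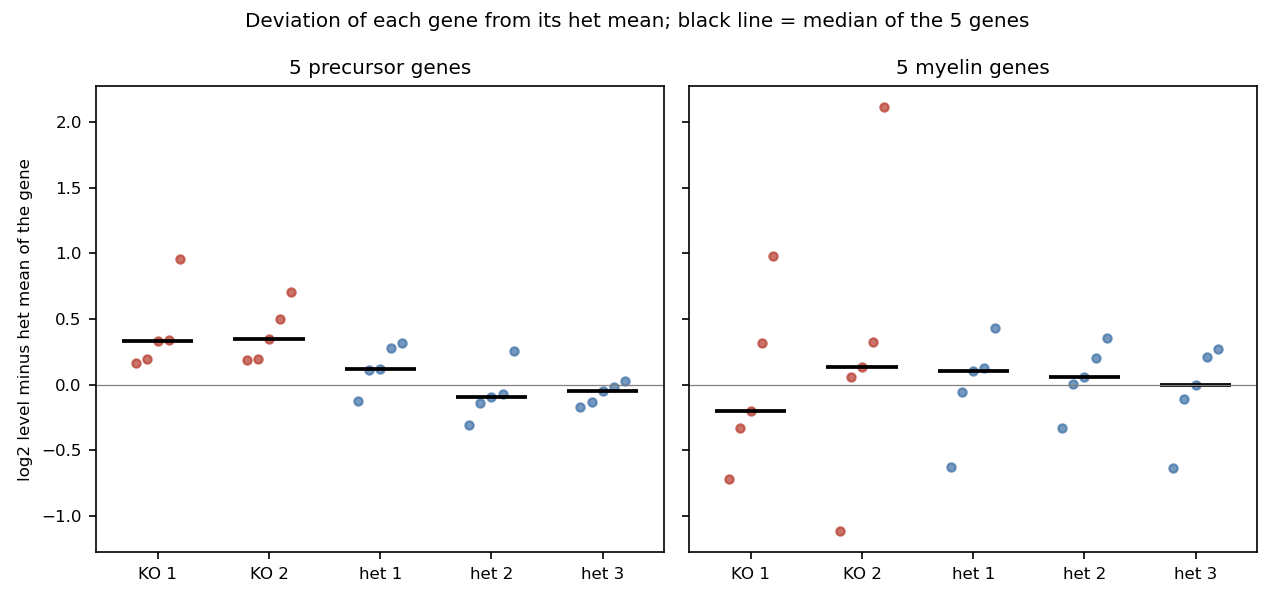
Deviation of each gene from its heterozygous control mean on the log2 scale (vertical axis) in each array, for the 5 precursor genes (left) and the 5 myelin genes (right) at their brightest probe sets; knockout arrays are red and stand left of the control arrays in blue, and black lines are medians of the 5 genes. All 5 precursor genes are above 0 in both knockout arrays, while the myelin genes range from -1.12 (Mag) to 2.11 (Mbp) in knockout replicate 2.

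Of the 4 genes for platelet-derived growth factors, 3 had lower means in the knockout. Pdgfc read 8.34 and 7.92 in the knockout pools, against 8.75, 8.75 and 8.94 in the heterozygous pools, a difference of -0.69 (limma adjusted p = 0.256). Pdgfb read 7.86 and 7.93 in the knockout pools, against 8.29, 8.22 and 8.48 in the heterozygous pools, a difference of -0.43 (limma adjusted p = 0.328); it encodes a chain known mainly as the ligand of the related receptor of pericytes. In both genes every knockout array was below every control array. Pdgfa, the ligand best known for driving oligodendrocyte precursors, gave -0.072 at its brightest probe set, with overlap, and -0.31 at the other, without overlap. Pdgfd gave 0.47 and the receptor gene Pdgfrb -0.15. None of these 5 genes passed the adjusted threshold in limma.

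Other genes of the lineage were followed in lists by stage, each gene at its brightest probe set. Together with the 10 genes above they made 59 genes, of which 42 were higher and 17 lower, with a median of 0.13, and 0 passed the adjusted threshold in limma (7 higher and 4 lower at an unadjusted p under 0.05, against 11.8% of all genes, or 1256 higher and 891 lower of 18193). Both knockout arrays were above every control for 19 of the 59 and below for 6, against 15.8% and 13.9% of all genes. Of 11 further surface and matrix genes of precursors, 10 were higher, with a median of 0.14. Vcan, which encodes the proteoglycan versican, read 11.55 and 10.76 in the knockout pools, against 9.80, 10.18 and 9.84 in the heterozygous pools, a difference of 1.21 (limma adjusted p = 0.232). Ednrb, an endothelin receptor, gave 0.49, Bcan, the proteoglycan brevican, 0.60 and Ptprz1, a receptor phosphatase, 0.28, each without overlap between the groups. Other probe sets of Ptprz1 gave 0.22 and -0.22, both with overlap. Vcan, Ednrb, Bcan and Ptprz1 are also known from radial glia or astrocytes. The 18 markers of those cells had mean levels of 10.33 to 10.45 in the knockout and 10.20 to 10.56 in the control.

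Of 8 further transcription factors of the lineage, 4 were higher and 4 lower. Myrf, the factor that switches on myelin genes as oligodendrocytes mature, read 5.91 and 5.59 in the knockout pools, against 6.38, 6.15 and 6.92 in the heterozygous pools. Both knockout pools were below every control pool, 4 of the 5 arrays were below the median of all values, and the gene was named through the mean of the control group alone. The difference was -0.73 with a standard error of 0.26 (limma adjusted p = 0.394). Nkx2-2, a homeodomain factor of precursors and of prethalamic neurons, read 10.23 and 8.72 in the knockout pools, against 8.67, 7.96 and 8.37 in the heterozygous pools, a difference of 1.14 (limma adjusted p = 0.464) that came mostly from knockout replicate 1. That array also stood apart in the GABAergic and prethalamic markers, whose mean level over 19 genes was 8.26 there, 5.92 in knockout replicate 2 and 5.55 to 6.08 in the controls, and their part in the Nkx2-2 result was not tested. Sox5 at its brightest probe set read 10.41 and 8.72 in the knockout pools, against 10.39, 10.31 and 10.26 in the heterozygous pools. The difference of -0.76 at this probe set came from knockout replicate 2 alone. Other probe sets of Sox5 gave -1.22, -1.30, -0.97 and -0.42, each with both knockout arrays below every control array. The remaining ones gave -0.23 and -0.38 with overlap. Sox6 gave 0.013 with overlap.

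Genes of committed precursors and of the myelin sheath were mixed. Of the 8 genes of committed precursors 6 were higher, with Bcas1 at 0.33, Tns3 at 0.28, Itpr2 at 0.27 and Sirt2 at -0.18. Enpp6, with both group means below the median of all values, was lower without overlap at -0.53 (limma adjusted p = 0.270). It was the only gene of this list with an unadjusted p under 0.05 in limma. Of 15 further myelin protein genes 10 were higher and 5 lower, with a median of 0.053, and 8 of them were below the median of all values in every array. Cldn11, which is 1 of these dim genes, was higher without overlap. It read 4.00 and 4.07 in the knockout pools, against 3.42, 3.42 and 3.31 in the heterozygous pools. The difference was 0.65 (limma adjusted p = 0.139), with the smallest adjusted p of the 59 lineage genes. Omg, which encodes the oligodendrocyte-myelin glycoprotein and is also made by neurons, read 8.55 and 8.31 in the knockout pools, against 7.77, 7.50 and 7.67 in the heterozygous pools, a difference of 0.78 with a standard error of 0.14 (limma adjusted p = 0.169). Plekhh1, Lpar1 and Tspan2 gave 0.40, 0.21 and -0.26. Of 7 genes of myelin lipid synthesis 5 were higher. Gal3st1, which makes the sulfatide of myelin, was the lower one without overlap at -0.57 (limma adjusted p = 0.445). Ugt8a, which makes its galactolipid precursor, gave 0.14, Elovl7 0.46 and Degs1 0.13. Elovl7 was named through the mean of the knockout group alone (6.68, against 6.21 in the control).

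Markers of other cells that could share these transcripts were measured beside them. At their brightest probe sets, microglia markers were higher for 16 of 17 genes. In limma, 2 of these passed the adjusted threshold (Lyz2 and Tyrobp). Of all 18193 genes at the brightest probe set, 16 passed it as higher and 3 as lower. A dimmer probe set of C1qb passed it too, at 2.57 (limma adjusted p = 0.0395). The mean level of the list was 7.90 to 8.10 in the knockout arrays and 6.43 to 6.60 in the control arrays. Of the 17 genes, 3 were below the median of all values in every array. The microglia list was high in the same arrays as the higher means of Mbp and of the precursor genes, and its part in them was not tested. Schwann cells of peripheral nerve also express Sox10, Mbp, Mag and Cnp. Of 8 Schwann cell markers 4 were higher and 4 lower, with mean levels of 6.76 to 6.95 in the knockout and 6.63 to 6.86 in the control. Single markers differed more: Drp2 by 0.75, Pou3f1 by 0.46, Pmp22 by 0.31 and Egr2 by -0.92, each without overlap. Both knockout arrays were above every control for 3 of the 8 and below for 1, against 15.8% and 13.9% of all genes. The part of Schwann cells in the results was not tested. RNA quality also differed between arrays: in knockout replicate 1, the Gapdh control signal was higher at the 3′ end than at the 5′ end by 2.34, against 0.96 in knockout replicate 2 and 0.77 to 1.32 in the controls. Replicate 1 was the knockout pool with the lower Mbp and the higher Mag, and the part of RNA quality in these differences was not tested.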

How the data were processed

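Per the labels' protocols, dLGN tissue was dissected from vibratome sections of 200 µm, and 20 ng of total RNA was amplified, biotin-labelled and hybridised. Each probe set's deposited value is an RMA level on a log2 scale, per the submitters' processing notes; the sources used here give neither the version of RMA nor its settings, and the log scale is that of the values' range. Because RMA equalises the arrays, it would hide a change common to most genes.

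Of 45101 probe sets, 64 array controls were left out. The platform annotation gave 34945 of the rest 1 gene, 932 several and 9160 none, and names were looked up by gene ID in RefSeq GRCm38.p6 (34741 found, 0 changed). No 2 arrays were copies of each other (correlation across probe sets 0.985 to 0.995). The 2 genotypes were compared in limma 3.58.1 (lmFit, eBayes; R 4.3.3) with no further covariate. Its two-sided p-values were adjusted by Benjamini and Hochberg's method across the whole table of 45037 probe sets, and every adjusted p comes from there. The fit was tested on simulated data. The number of arrays limits the precision.

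A gene is represented by its probe set with the highest mean, and all probe sets of the 10 genes are given. From other lists up to 4 genes with the smallest p that reached the median of all values in a group were named. This was done for the lineage, growth factor, relay neuron and Schwann cell lists. Remaining cell type lists are given mainly by counts and mean levels. Gbx2 and Slc6a4 were named outside this rule, and Pdgfa completes a list of 5. Enpp6 and Cldn11 are given although they did not reach that median. The genes, lists and rules were chosen with earlier results of these data known. Of 158 listed symbols 11 matched no probe set of a single gene and were not analysed here. As alternatives, the fit was repeated with a block for replicate number, with arrays quantile-normalised again or median-centred, without dim probe sets, with an intensity trend, with array weights, without each array in turn, and with a gene's probe sets averaged.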

Additional observations from a re-analysis of the deposited data

Results flagged for a closer look

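The array's own control probe sets for RNA quality enter no comparison of genes. For Gapdh, the excess of 3′ over 5′ signal was 2.34 log2 units in knockout replicate 1 and 0.96 in knockout replicate 2, against 0.77 to 1.32 in the controls, so the first knockout array stood above every control. For Actb it was 1.91 and 0.97 in the knockout arrays, against 0.62 to 1.45 in the controls.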

How the results depend on the processing

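Of the 118 values of the 10 genes under 12 alternative settings, 113 kept their direction and stayed above the adjusted threshold of 0.05, and 0 of the 28 probe sets passed it in limma under any setting that tested them; at an unadjusted p under 0.05 there were 4 to 11. With single arrays left out, Mog ranged from -0.33 to 0.32: it turned positive without knockout replicate 1 (0.32), without control replicate 1 (0.21) or 2 (0.099) and with arrays centred (0.00038), and Mobp without knockout replicate 1 (0.057); the cause was not tested. Mog and Mobp gave no value when dim probe sets were left out. That filter put the median of the myelin genes at 0.23, since only Mbp, Mag and Cnp remained, and leaving out single arrays put it between -0.20 and 0.21, so its sign is not fixed. The median of the precursor genes was positive under all 12 settings, 0.27 to 0.37 with arrays left out and 0.19 with a gene's probe sets averaged. The count over all probe sets, 33, was 0 with any 1 control array left out. It was 114 without dim probe sets, 100 with an intensity trend and 19 with array weights, and the reasons for these changes were not tested. With the replicate block the count was 0, with 9 of the 28 probe sets at an unadjusted p under 0.05.

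The replicate numbers are not said to pair the pools. Deviations from the group means correlated at 0.148 across probe sets for the arrays numbered 1 and at 0.212 for those numbered 2. With 2 knockout arrays, the deviation of one is the negative of the other, so these are not separate pairs. Knockout replicate 1 gave -0.212 with control replicate 2 and 0.056 with control replicate 3. These values cannot decide whether the pools are paired, so the block serves as an alternative. Low signal limits what can be said of Mog, Mobp and the dimmest Mbp probe sets.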
